A study of Mus musculus with 6 samples.

Results

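The 10 genes described here are surface and cytoplasmic markers of retinal ganglion cells, the neurons whose axons form the optic nerve: Thy1, Rbpms, Sncg, Nrn1, Chrna6, Chrnb3, Slc17a6, Uchl1, Opn4 and L1cam. Their probe sets were all those to which the array's annotation gave 1 of these symbols and no other gene. This yielded 17 probe sets of 45037 on the array, of which 13, for 9 genes, were bright enough to be tested among 20973. A probe set was tested where the third highest of its 6 readings reached 4 on the log2 scale. The remaining 4 probe sets, including both of Opn4, lay below that level.

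The samples were whole retinas from females of DBA/2J, an inbred mouse line in which a pigment-related glaucoma appears with age, and their messenger RNA was measured on Affymetrix arrays. The groups were 3 retinas of animals aged 8 months with elevated intraocular pressure and 3 retinas of animals aged 3 months with normal pressure, each from a separate animal and on its own array. The final pressure was 25.3, 26.5 and 30.4 mmHg in the 8-month eyes, against 19.1, 15.3 and 18.2 mmHg in the 3-month eyes. Animals were chosen by pressure at each age, so age and pressure cannot be told apart, and no retina of another strain was analysed here. The eye differed too, since 8-month retinas 2 and 3 came from right eyes and the other 4 retinas from left eyes. The question was whether these transcripts, often used to count ganglion cells or follow their injury, differed between the ages.

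Ganglion cells collect the output of the bipolar and amacrine cells and carry it to the brain as action potentials. They are a small share of retinal cells, and they release glutamate from their axon terminals. They are the cells lost in glaucoma, and the mRNA of some of their markers is known to decline after optic nerve injury before the cells themselves disappear. In RNA from a whole retina, fewer cells of a type and less RNA per cell cannot be told apart.

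All 10 genes were placed on the GRCm38.p6 assembly by their gene identifiers. Chrnb3 (chr8:27368711-27399730) and Chrna6 (chr8:27403212-27413944) lie 3481 bases apart, and Rbpms is on the same chromosome (chr8:33782643-33929922). Sncg (chr14:34370274-34374669) and Opn4 (chr14:34590618-34600142) share a chromosome as well, 215948 bases apart. The others are Thy1 (chr9:44043384-44048579), Nrn1 (chr13:36725622-36734477), Slc17a6 (chr7:51621830-51671126), Uchl1 (chr5:66676121-66687234) and L1cam (chrX:73853778-73880838).

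None of the 13 tested probe sets passed between the ages (limma, 0 of 13 at a Benjamini-Hochberg adjusted p under 0.05, and 0 of 13 at an unadjusted p under 0.05). Over the whole table, 0.00477% of probe sets passed the adjusted threshold and 14.9% the unadjusted one, 10.3% lower and 4.63% higher at 8 months. The mean was lower at 8 months in 9 of the 13 and higher in 4, where 59.4% of all tested probe sets were lower. The ages did not overlap in 2 of the 13, both lower at 8 months, against 14.9% of all tested probe sets that were lower without overlap, 6.89% that were higher without overlap and 21.8% in either direction. Among the 13 these were shares of 69.2% lower, 15.4% without overlap and 0% at an unadjusted p under 0.05. With so few probe sets, none of these is read as a departure from the array at large. The median log2 difference of the 13 was -0.13, beside -0.041 for all tested probe sets. It was -0.084 after quantile normalization and -0.070 after cyclic loess, where that of all tested probe sets was -0.0052 and -0.0016.

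Thy1 encodes a glycolipid-anchored surface protein of the immunoglobulin superfamily that is a classic ganglion cell label in the rodent retina. Its log2 level was 8.97, 8.89 and 9.23 in 8-month retinas 1 to 3, against 9.31, 9.08 and 9.06 in 3-month retinas 1 to 3. The ages overlapped, because 8-month retina 3 lay above 3-month retinas 2 and 3. The log2 difference was -0.12 ± 0.12 (SE, n = 3 each), with a 95% interval of -0.40 to 0.16 (limma, adjusted p = 0.648). As a ratio of the ages this was 0.920, with an interval of 0.756 to 1.12. Thy1 is also a surface protein of T cells, whose receptor chain genes Cd3d, Cd3e and Cd3g averaged 2.71, 2.45 and 2.67 at 8 months and 2.75, 2.41 and 2.58 at 3 months on the log2 scale, all below the level for testing. The T cell list had 2 tested genes of 10, Cd2 at 4.21 ± 0.10 at 8 months and 3.93 ± 0.33 at 3 months and Cd8a at 4.35 ± 0.023 at 8 months and 4.26 ± 0.12 at 3 months (log2, SD, n = 3), both near that level and with overlapping ages.

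L1cam, which encodes a cell adhesion molecule of growing and bundled axons, was the tested gene with the highest positive difference among the 9. Its log2 level was 6.88, 7.00 and 6.76 in the 8-month retinas, against 6.66, 6.69 and 6.85 in the 3-month retinas. Only 3-month retina 3 reached into the 8-month range, and the log2 difference was 0.14 ± 0.10 (SE), with an interval of -0.09 to 0.37 (limma, adjusted p = 0.515). A second L1cam probe set read between 2.38 and 2.40 in every retina, at the bottom of the array's scale.

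Nrn1 encodes neuritin, a small glycolipid-anchored protein that promotes neurite growth. It had the brightest probe set of the group, at a log2 level of 10.01, 9.97 and 9.87 in the 8-month retinas and 10.27, 10.01 and 10.03 in the 3-month retinas. All 8-month readings were below all 3-month readings, but 8-month retina 1 and 3-month retina 2 were level to the second decimal. The log2 difference was -0.15 ± 0.10 (SE), with an interval of -0.39 to 0.08 (limma, adjusted p = 0.492). Sncg encodes gamma-synuclein, an abundant cytoplasmic protein of ganglion cell bodies and axons. Its log2 readings were 7.50, 7.51 and 7.40 at 8 months, against 7.78, 7.48 and 7.62 at 3 months. 3-month retina 2 lay among the older ones, and the log2 difference was -0.16 ± 0.10 (SE), with an interval of -0.39 to 0.08 (limma, adjusted p = 0.488).

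Uchl1 encodes a neuronal ubiquitin hydrolase, known as PGP9.5, that labels ganglion cells and some other retinal neurons. It read 8.94, 8.84 and 8.89 in the 8-month retinas, against 9.34, 8.83 and 9.28 in the 3-month retinas. The older retinas were within 0.105 of each other on the log2 scale, whereas the younger ones spanned 0.512, with retina 2 below all older ones. Its log2 difference of -0.26 ± 0.14 (SE) was the most negative among the brightest probe sets, with an interval of -0.60 to 0.08 (limma, adjusted p = 0.425). Rbpms, an RNA-binding protein gene found in nearly all ganglion cell types, was read by 3 tested probe sets. In the brightest the log2 level was 6.52, 6.32 and 6.27 at 8 months, against 6.16, 6.48 and 6.32 at 3 months, with the ages fully mixed. The log2 differences of the 3 were 0.046, -0.10 and -0.15, all with intervals that include 0 (limma, adjusted p = 0.866, 0.675 and 0.584). A further Rbpms probe set, too dim for the test, read 3.19, 3.16 and 3.00 at 8 months and 3.30, 3.53 and 3.37 at 3 months. Every Rbpms probe set carried a suffix that marks probes less specific to 1 transcript, as did the only Chrnb3 probe set.

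**Figure D1:**
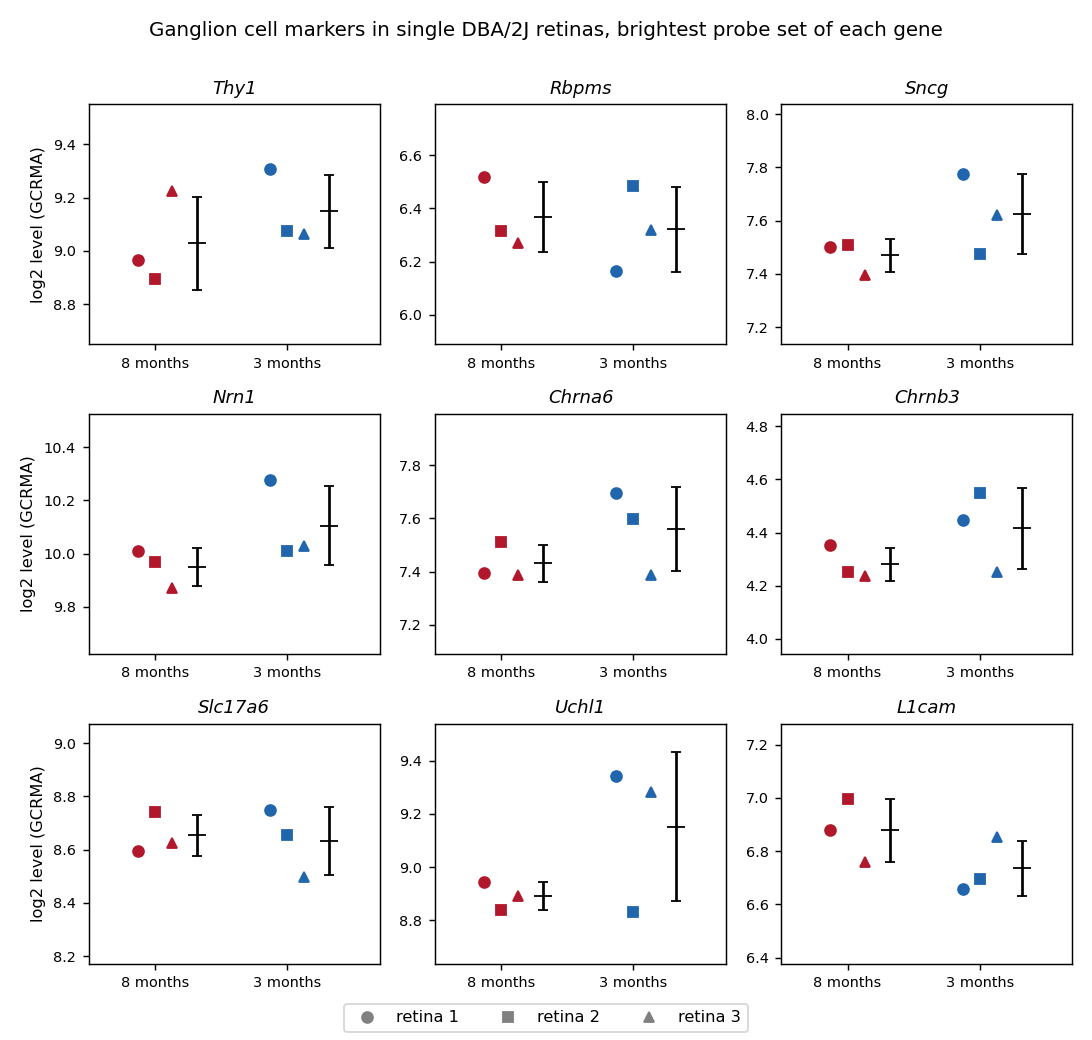
Log2 level (vertical axis, GCRMA scale, the same span of 0.9 in every panel) of the brightest tested probe set of 9 marker genes in each retina, with 8-month retinas in red and 3-month retinas in blue. Black bars give the mean and SD of 3 retinas, and the ages overlap in every panel except that of Nrn1.

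Chrna6 and Chrnb3 encode the alpha6 and beta3 subunits of nicotinic acetylcholine receptors, which are known to assemble into one receptor on ganglion cell axons. The brighter Chrna6 probe set had log2 levels of 7.40, 7.51 and 7.39 at 8 months, against 7.70, 7.60 and 7.39 at 3 months. The dimmer one had 6.88, 6.85 and 6.69 at 8 months, against 7.49, 7.01 and 6.90 at 3 months, and its ages did not overlap. This dimmer probe set had the smallest p of the 13. Its log2 difference was -0.32 ± 0.16 (SE), with an interval of -0.70 to 0.05 (limma, unadjusted p = 0.0824, adjusted p = 0.390), while that of the brighter one was -0.13 ± 0.10 (limma, adjusted p = 0.568). Across the 6 retinas the 2 readings of Chrna6 had a Pearson correlation of 0.86. For the tested probe sets of Slc17a6 it was 0.60, and for the pairs of Rbpms probe sets 0.37, 0.0065 and 0.73. Chrnb3 was close to the level for testing, at 4.35, 4.25 and 4.24 at 8 months, against 4.45, 4.55 and 4.25 at 3 months, and GCRMA can understate differences there. Its log2 difference was -0.14 ± 0.10 (SE), with an interval of -0.37 to 0.10 (limma, adjusted p = 0.538), and 3-month retina 3 lay among the older retinas.

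Slc17a6 encodes VGLUT2, the vesicular transporter that loads glutamate in ganglion cells. Its brighter probe set had nearly equal log2 levels at both ages, with 8.60, 8.74 and 8.63 at 8 months, against 8.75, 8.66 and 8.50 at 3 months. The log2 difference was 0.022 ± 0.095 (SE), with an interval of -0.20 to 0.25 (limma, adjusted p = 0.929), and its sign turned when each array was centred on its median, at -1.14e-05. The dimmer probe set was the least steady reading of the group, at 5.59, 5.19 and 5.37 in the 8-month retinas, against 5.75, 5.43 and 4.84 in the 3-month retinas, which held both the highest and the lowest value. Its log2 difference of 0.042 became -0.21 without 3-month retina 3, and -0.060 without 8-month retina 1. Opn4 encodes melanopsin, the photopigment of the few ganglion cells that sense light on their own. Its readings were 3.55, 3.52 and 3.77 at 8 months and 3.56, 3.49 and 3.86 at 3 months in the brighter probe set, and between 2.90 and 3.04 in the dimmer one. Opn4 was not tested, and no fold is given, because both ages were below the level for testing.

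**Figure D2:**
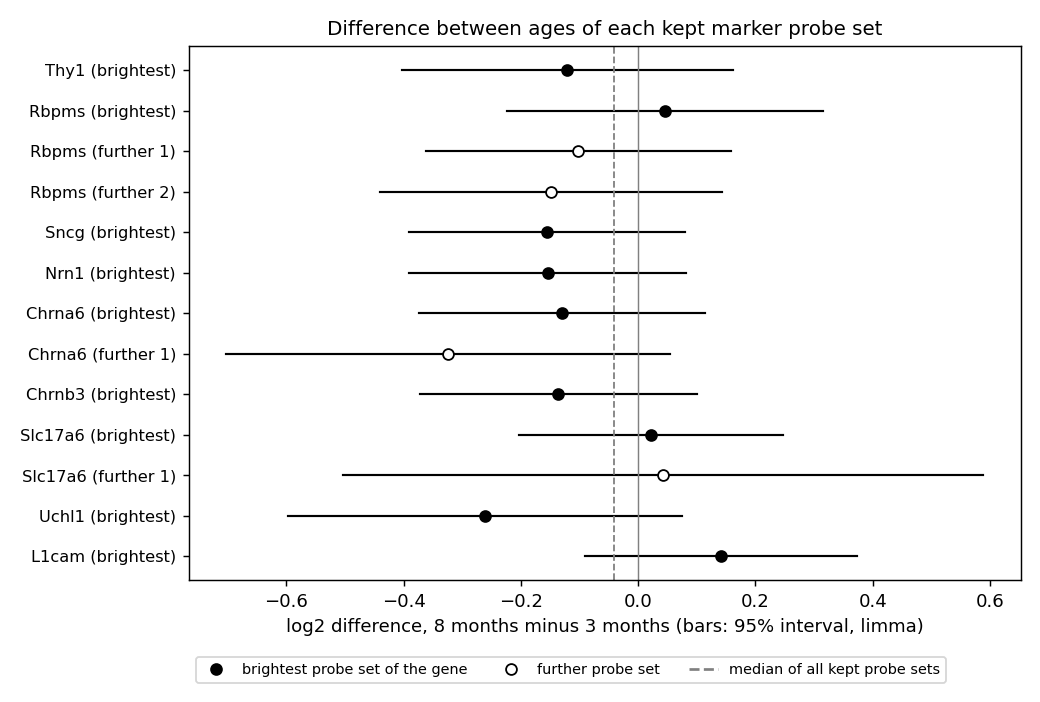
Log2 difference, 8 months minus 3 months (horizontal axis), of the 13 tested marker probe sets, with 95% intervals from limma. Filled points are the brightest probe set of each gene, open points further ones, and the dashed line is the median of all tested probe sets at -0.041. Every interval includes 0.

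All 13 intervals for the log2 difference lay between -0.70 and 0.59. The number of arrays limits this precision. The median distance from an estimate to the end of its interval was 0.26 on the log2 scale, which is larger than 11 of the 13 estimates were in size. Differences of the size seen here could therefore not be separated from none with 3 retinas an age.

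The genes varied among retinas in a pattern that was not that of age alone. 3-month retina 1 had the highest reading in 6 of the 9 brightest probe sets and in 8 of all 13, where this retina was highest in 27.7% of all tested probe sets. Averaged over the 9 genes, the log2 level around each gene's own mean was -0.018, -0.033 and -0.073 in 8-month retinas 1 to 3, against 0.121, 0.0056 and -0.0027 in 3-month retinas 1 to 3. All 8-month values of this mean lay below all 3-month values. The same held for the mean over all tested probe sets, at -0.013, -0.025 and -0.017 at 8 months, against 0.027, 0.0076 and 0.021 at 3 months. The marker mean was farthest from 0 in 3-month retina 1. The median log2 difference of the 13 was -0.069 without that retina, and -0.069 as well without 3-month retina 2. 3-month retina 1 also had the lowest 3' minus 5' log2 signal of the control probe sets for actin, at 1.62 against 1.71 to 1.87 in the others, and for Gapdh, at 0.707 against 0.729 to 0.811. It also had the lowest mean log2 level of the 6 pigment epithelium and melanocyte genes tested, of 12 listed, which was 6.27, 6.07 and 4.79 in 8-month retinas 1 to 3, against 4.42, 5.89 and 6.72 in 3-month retinas 1 to 3. Rpe65, a visual cycle gene that defines pigment epithelium, read 4.91, 5.43 and 3.00 in 8-month retinas 1 to 3, against 2.80, 3.90 and 4.99 in 3-month retinas 1 to 3. The part of RNA quality or pigment cells in the marker values of 3-month retina 1 was not tested. The spread among the younger retinas was larger than among the older ones in 11 of the 13 marker probe sets, with a median SD of 0.077 at 8 months and 0.16 at 3 months on the log2 scale. For all tested probe sets this was so in 62.3%, with medians of 0.11 at 8 months and 0.14 at 3 months.

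**Figure D3:**
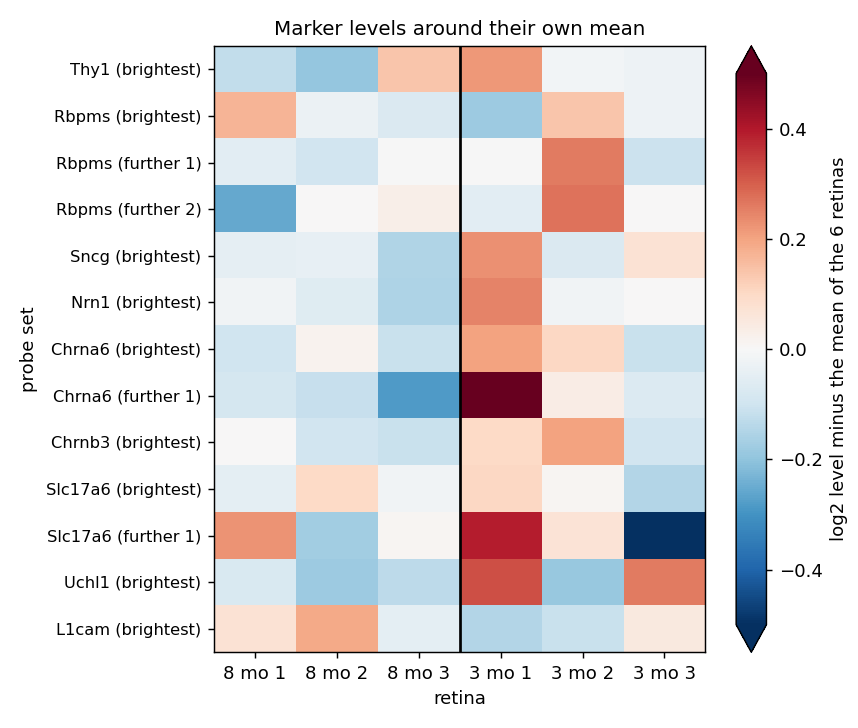
Log2 level of each tested marker probe set minus its mean over the 6 retinas (colour, scale ending at 0.5 on either side), with 8-month retinas left of the black line and 3-month retinas right of it. 3-month retina 1 is the highest column in 8 of the 13 rows, while the L1cam row and the row of the brightest Rbpms probe set are lowest there.

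Among the 36 pairs of the 9 genes, the correlation over the 6 retinas was above 0.8 for 2, Sncg with Nrn1 at 0.94 and Sncg with Uchl1 at 0.89, and below 0 for 14. The neighbouring genes Chrna6 and Chrnb3 had a value of 0.73, Chrna6 and Slc17a6 of 0.75, and Thy1 and L1cam of -0.86. These are descriptions of 6 points that share the same arrays. In Sncg, Nrn1 and Uchl1 alike, 3-month retina 1 had the highest reading. L1cam and the brightest Rbpms reading were lowest in that retina.

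Promoter sequences from RefSeq on GRCm38.p6, 250 bases before to 50 after the gene start, were found for 5 of the 10 genes, Sncg, Uchl1, Slc17a6, Opn4 and L1cam. Those of Sncg and Uchl1 are shown because these genes had like profiles, and that of Slc17a6 because its profile differed from theirs. They are from chr14:34374620-34374919 on the minus strand, chr5:66675871-66676170 on the plus strand and chr7:51621580-51621879 on the plus strand, the first of a pair of Slc17a6 starts. Capitals mark matches, on either strand, to the TATA-box letters TATAAA, the CCAAT box, the GC-box letters GGGCGG and the homeodomain core TAATTA, which do not overlap here.
Sncg: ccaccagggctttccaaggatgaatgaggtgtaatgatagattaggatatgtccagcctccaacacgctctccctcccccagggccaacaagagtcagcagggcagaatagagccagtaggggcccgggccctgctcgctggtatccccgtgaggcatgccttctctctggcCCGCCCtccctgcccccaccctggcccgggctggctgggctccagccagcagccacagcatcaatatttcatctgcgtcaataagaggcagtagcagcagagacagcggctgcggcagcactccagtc
Uchl1: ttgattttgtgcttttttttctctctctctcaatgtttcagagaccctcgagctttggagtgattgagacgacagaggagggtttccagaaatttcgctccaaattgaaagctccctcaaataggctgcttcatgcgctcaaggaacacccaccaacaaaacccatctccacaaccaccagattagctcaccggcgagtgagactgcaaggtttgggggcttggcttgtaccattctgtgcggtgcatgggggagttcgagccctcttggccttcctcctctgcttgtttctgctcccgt
Slc17a6: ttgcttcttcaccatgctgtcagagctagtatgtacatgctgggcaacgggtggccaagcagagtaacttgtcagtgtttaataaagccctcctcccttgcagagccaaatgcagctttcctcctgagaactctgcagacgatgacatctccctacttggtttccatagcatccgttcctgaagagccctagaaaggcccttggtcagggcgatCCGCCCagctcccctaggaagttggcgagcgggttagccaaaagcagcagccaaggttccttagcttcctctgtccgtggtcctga
The Sncg and Slc17a6 windows each held 1 GGGCGG match, on the strand opposite to the one printed, as did 35.7% of 32851 promoters on either strand at least once. None of the windows printed held the TATA-box letters, the CCAAT box or the homeodomain core, which occur in 13.6%, 37.4% and 5.29% of promoters. Among windows not printed, that of the second Slc17a6 start held 1 homeodomain core. The Opn4 window and 1 of the L1cam windows each held 1 CCAAT box. The overlapping L1cam windows held 1 and 2 GGGCGG matches, counted on either strand. GC content was 61.3% for Sncg, 50.7% for Uchl1 and 53.7% for Slc17a6, around the median of 52.7% over all promoters. Such matches are a description of letters in these windows.

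Outside the group, the genes closest to the mean profile of the 9 markers were Gfpt1, Snrk, Xrcc4, Ssr2 and Gstt2, with Pearson correlations over 6 retinas between 0.989 and 0.998. They were ranked among 8709 genes whose SD over the retinas was at least 0.1 on the log2 scale, and 239 of these exceeded 0.9. These genes were picked for this value from many with only 6 points each, so it is a description. Gfpt1 averaged 8.17 at 8 months and 8.32 at 3 months, and Snrk 9.95 at 8 months and 10.15 at 3 months on the log2 scale.

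**Figure D4:**
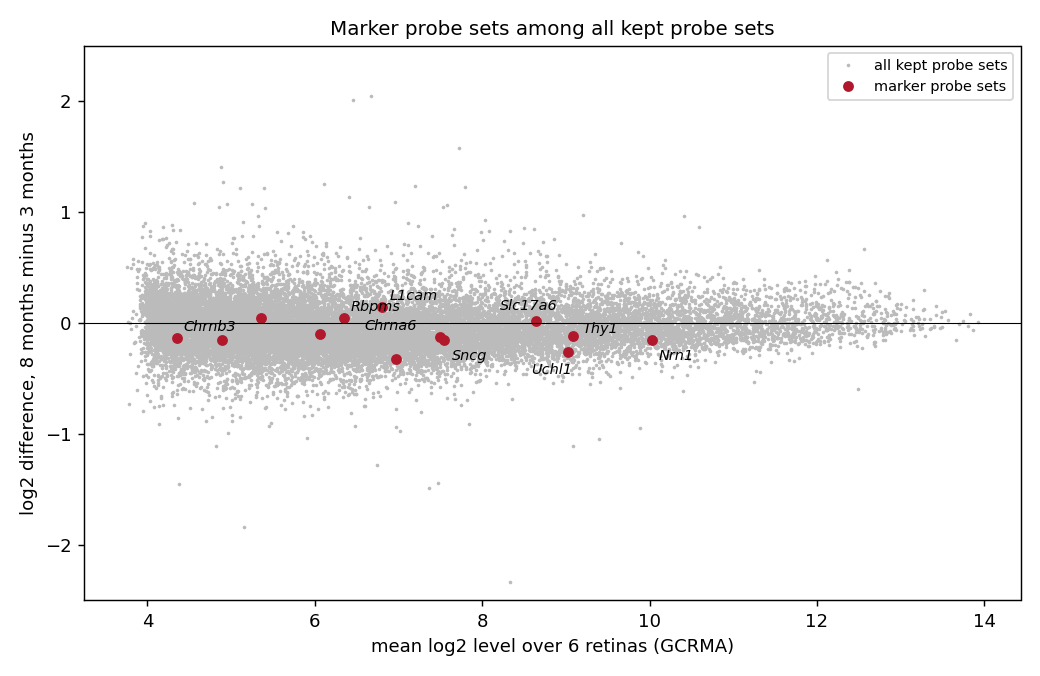
Log2 difference, 8 months minus 3 months (vertical axis), against the mean log2 level over 6 retinas (horizontal axis) for the 20973 tested probe sets in grey and the 13 marker probe sets in red, the brightest of each gene being named. The markers lie within the band of probe sets of like level, between -0.32 and 0.14.

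Other genes listed for ganglion cells were read from their brightest probe sets, and their counts stand beside shares over all tested probe sets. The RNA was of whole retinas, so other cells can contribute to these readings. Of all tested probe sets, 59.4% were lower at 8 months. At an unadjusted p under 0.05 (limma), 10.3% were lower and 4.63% higher. Without overlap of the ages, 14.9% were lower. Of 18 listed transcription factors 13 were tested, 10 of them lower and 3 higher at 8 months, and 0 passed after adjustment over all probe sets. At an unadjusted p under 0.05, 3 were lower and 0 higher, the SoxC factor genes Sox11 and Sox4 and the POU-domain gene Pou4f1, with log2 differences of -0.53, -0.28 and -0.26 (limma adjusted p = 0.186, 0.271 and 0.297). In each of these the ages did not overlap. Of 12 cytoskeleton and growth genes 11 were tested, 10 lower and 1 higher, with 0 passing after adjustment and 2 lower at an unadjusted p under 0.05. These were the neuronal beta-tubulin gene Tubb3, without overlap, and Ank3, an ankyrin gene of the axon initial segment, with log2 differences of -0.57 and -0.30 (limma adjusted p = 0.206 and 0.326).

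Of 24 surface, synaptic and channel genes 19 were tested, 12 lower and 7 higher, again with 0 passing after adjustment. The A-type potassium channel gene Kcnd2 and the cadherin gene Cdh13 had log2 differences of -0.38 and -0.35, and the sodium channel gene Scn2a one of 0.31 (limma, adjusted p = 0.305, 0.298 and 0.287). Cdh13 was near the level for testing, averaging 4.03 at 8 months and 4.38 at 3 months on the log2 scale. The median log2 differences of these lists were -0.080 for transcription factors, -0.14 for cytoskeleton and -0.12 for surface genes, beside -0.058 for the 11219 genes tested and -0.13 for the 9 markers.

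Of 28 relatives of the marker genes 13 were tested, some of which are also in the surface list, with 10 lower and 3 higher and 0 passing after adjustment. Slc17a7, the vesicular glutamate transporter gene of photoreceptors and bipolar cells, averaged 7.42 ± 0.10 at 8 months and 7.71 ± 0.14 at 3 months (log2, SD, n = 3). Its ages did not overlap, with a log2 difference of -0.29 ± 0.10 (SE; limma, unadjusted p = 0.0282, adjusted p = 0.296), whereas that of its ganglion cell counterpart Slc17a6 was 0.022. Whether these differences differ from each other was not tested. Among nicotinic subunits, Chrnb1, the beta1 subunit known from muscle, averaged 6.83 ± 0.14 at 8 months and 7.29 ± 0.11 at 3 months, and Chrna7, which forms receptors on its own, averaged 6.77 ± 0.19 at 8 months and 6.45 ± 0.20 at 3 months (log2, SD, n = 3; limma adjusted p = 0.211 and 0.344). Both had ages that did not overlap, in opposite directions.

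Markers of other retinal cells showed how the samples themselves compared. The 7 bipolar genes tested had a median log2 difference of 0.049, the 8 amacrine genes 0.091, the 5 horizontal cell genes 0.12, the 11 Müller glia genes 0.068, the 7 cone genes -0.073 and the 8 rod genes -0.18. It was -0.24 for 5 endothelial and pericyte genes, whose mean log2 level did not overlap between the ages, at 5.76 to 5.79 at 8 months and 5.88 to 6.13 at 3 months. The mean of the rod genes did not overlap either, at 11.48 to 11.56 at 8 months and 11.61 to 11.72 at 3 months. The 9 markers had means of 7.63 to 7.68 at 8 months and 7.70 to 7.82 at 3 months, also without overlap. Nor was there overlap in the means of the transcription factor, cytoskeleton and relatives lists, all lower at 8 months. The mean of the 2 T cell genes was higher without overlap, at 4.22 to 4.33 at 8 months and 3.94 to 4.19 at 3 months. Both T cell genes were near the level for testing. The mean over all tested probe sets was itself lower at 8 months without overlap. The median log2 difference was -0.0056 for 5 astrocyte genes, among which Gfap, the filament gene of reactive glia, differed by 1.07 (limma adjusted p = 0.223), -0.053 for 2 myelin genes, -0.19 for 2 blood genes and 0.031 for the 6 pigment cell genes. In each of these lists 0 genes passed after adjustment. The 4 microglial genes tested, of 11 listed, were all higher at 8 months, their mean log2 level being 6.62 to 6.76 at 8 months and 6.12 to 6.29 at 3 months, while Cx3cr1, P2ry12 and Aif1 were below the level for testing. Lens genes, 10 tested of 16, averaged 8.53, 4.05 and 4.41 (log2, replicate order) at 8 months, against 5.92, 4.49 and 9.68 at 3 months. 8-month retina 1 and 3-month retina 3 thus stood apart. Without both, which left 2 retinas an age, the median log2 difference of the 13 marker probe sets was -0.18. It was -0.041 for all tested probe sets in that setting. Of the 13, 12 were lower and 0 passed, and the share of all tested probe sets lower in that setting was not counted. With all 6 retinas, 9 of the 13 and 59.4% of all tested probe sets were lower. The 3' minus 5' signal of Gapdh did not overlap between the ages, at 0.755 to 0.811 at 8 months and 0.707 to 0.751 at 3 months. The part of microglia, vessels, glia, lens tissue or RNA quality in the marker values was not tested.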

How the data were processed

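Per the labels' protocols, 20 ng of total RNA from each rinsed retina went into NuGEN amplification and biotin labelling. The deposited values are log2 expression per probe set, made by the authors with GCRMA (version 1.1.0, under R 1.9.0) according to the submitters' processing notes. The options used, scan dates and detection calls are not given in the sources used here. GCRMA compresses weak signals, so differences of dim probe sets can be understated. Of 45101 probe sets, 64 controls were left out and 20973 passed the filter stated in the report, and between 46.1% and 46.6% of readings reached 4 in every array.

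The 8-month retinas were set against the 3-month retinas with limma 3.58.1 (lmFit, eBayes; R 4.3.3), without covariates, two-sided, with Benjamini-Hochberg adjustment over all tested probe sets at 0.05. SD, SE and intervals refer to log2 values. The fit was tested on simulated data. The named genes were all 10 markers, up to 4 genes of smallest p per further list, and the 5 genes of most similar profile. The dim T cell and microglial markers in the report were named after their values were seen. The markers, lists and tests were chosen with earlier results of these data known. An exact permutation test of 3 against 3 cannot reach 0.05 and was not used. The 18 alternatives covered the filter, scaling, variance model, array weights, eye side, replicate block, single retinas and probe set choice.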

Additional observations from a re-analysis of the deposited data

How the results depend on the processing

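Under 18 alternative settings, 0 marker probe sets passed in any, the smallest limma adjusted p being 0.110. Of 223 differences recomputed for single marker probe sets, 210 kept their direction and 13 turned, all in Rbpms and Slc17a6, while the other 9 probe sets kept theirs throughout. The brighter Slc17a6 probe set was -1.14e-05 after median centring, -0.037 with eye side as a covariate, -0.017 without both lens-rich retinas, and between -0.046 and 0.079 with single retinas left out. The dimmer one was -0.31 without both lens-rich retinas and between -0.21 and 0.25 with single retinas left out. The brightest Rbpms probe set was -0.030 without both lens-rich retinas, -0.068 as the mean of the gene's probe sets and between -0.033 and 0.13 with single retinas left out, and a further one between -0.18 and 0.0029. The cause was not tested. The median log2 difference of the markers lay between -0.18 and -0.069 with single retinas left out, at -0.084 after quantile normalization and -0.070 after cyclic loess, where the median of all probe sets was -0.0052 and -0.0016. Among all probe sets 1 passed, against 2 with the filter at 6, quantile normalization, cyclic loess or gene means, and 0 without a filter, with eye side, with the replicate block, without both lens-rich retinas or without any single retina. At an unadjusted p under 0.05 there were 0 of 13 marker probe sets in the main fit, beside 14.9% of all tested probe sets. There was 1 of 13 with the replicate block, and 0 to 2 of 13 with single retinas left out. The shares of all tested probe sets in those settings were not counted. Same-numbered retinas did not deviate together (correlations of -0.141, 0.064 and -0.283), and the block changed no call of a marker. Deviations around the mean of 3 retinas constrain each other, so these values cannot decide whether the numbers mark shared handling. The counts of markers lower at 8 months and at an unadjusted p were added as alternatives after seeing the data. With 3 retinas an age, the interval of a typical marker spans 0.26 on either side (log2).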
